A study of Mus musculus with 5 samples.

Results

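Glycogen metabolism was followed at the transcript level in ID8 cells, a line of mouse ovarian surface epithelium that grows as epithelial ovarian cancer in mice. The genes were Stbd1, Gys1, Gbe1, Gyg, Ugp2, Pygb, Pygl, Ppp1r3c and Epm2a, 9 of the 12393 genes that the arrays measured with probe sets annotated to a single gene. All 15 probe sets annotated to exactly 1 of these genes were used, with no filter on dim signals. Total RNA was hybridised to Affymetrix mouse arrays. The ascites group was ID8 cells kept for 7 days in DMEM with 10% ascites fluid from mice bearing ID8 tumours (replicates 2 and 3, n = 2 arrays). The FBS group was parental ID8 cells in DMEM with 10% fetal bovine serum (replicates 1, 2 and 3, n = 3 arrays). The design text does not settle whether the FBS culture also lasted 7 days or whether the ascites medium also held serum. All arrays came from 1 cell line, and nothing in the labels says that replicates were separate cultures, so the p values reflect array-to-array spread only, and part or all of that may be technical.

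The genes were chosen by their role in glycogen metabolism with the ascites minus FBS values of these same arrays in view, and Stbd1 was included for its difference, the 7th largest positive one of the 12393 genes. The members' differences between the groups are therefore given as a description, with no test. Values are log2 array signals, on which a difference of 1 is a 2-fold change, and standard errors (SE) come from the limma fit. Signals of different probe sets cannot be set against each other as amounts of RNA. In RNA from whole cultures, fewer cells that express a gene and less RNA per cell cannot be told apart.

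Glycogen is a branched polymer of glucose that cells store in the cytoplasm. Glycogenin starts a chain on itself, glycogen synthase lengthens it with glucose from UDP-glucose, and the branching enzyme adds branch points, while glycogen phosphorylase releases glucose 1-phosphate from chain ends. Protein phosphatase 1, brought to the particle by targeting subunits, switches synthase on and phosphorylase off, and a separate lysosomal route degrades glycogen with acid alpha-glucosidase.

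The arrays did not vary alike. The SD over all genes of the difference between a pair of arrays was 0.239 for the ascites arrays and 0.117 for FBS replicates 1 and 2, and it was 0.427 between FBS replicate 3 and either of them. Epithelial and mesothelial markers of the line were bright, with medians over 9 markers of 11.32 and 12.02 in the ascites arrays and 12.09 to 13.22 in the FBS arrays. By group means 8 of the 9 markers were lower in ascites and Msln was higher (0.37). The groups overlapped for Msln, whose ascites mean differed by 0.03 from FBS replicates 1 and 2 and by 1.05 from FBS replicate 3. In the limma fit 7 of the 9 had an unadjusted p below 0.05, as did 3004 of all 12393 genes. In the limma fit over all genes Krt18 and Krt19 fell (adjusted p = 0.0361 and 0.0428), where 2.59% of all genes did, and the largest differences, those of Bnc1 (-3.19) and Upk3b (-2.30), did not pass. Of 13 measured leukocyte markers 0 passed in the limma fit (1 at an unadjusted p below 0.05), and their summed log2 signals were 68.6 and 69.6 in ascites and 68.3 to 69.1 in FBS. The 34 measured markers of leukocytes, blood, liver, muscle and neurons ranged from 3.26 to 7.74, and 90% of their means lay at or below 6.61. The deposited values carry no detection call, so a signal within this range was not shown to lie above background.

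Stbd1 encodes a membrane-anchored protein with a starch-binding domain that holds glycogen at the endoplasmic reticulum and has been proposed to carry it to lysosomes. Its signal was 9.32 and 10.31 in ascites replicates 2 and 3, against 5.84, 6.11 and 6.54 in FBS replicates 1, 2 and 3. Both ascites arrays stood above every FBS array, although the FBS values lay in the range of the markers of other cell types. The SDs were 0.70 in ascites and 0.35 in FBS. The difference was 3.65 (SE 0.38), a 12.6-fold higher signal whose size is uncertain because the FBS level was not shown to exceed background. The ascites arrays differed from each other by 0.99, and 42 of all genes, Stbd1 among them, differed between them by as much or more. The difference was 4.15 without ascites replicate 2 and 3.16 without ascites replicate 3. A single probe set measured Stbd1, so no other probe set was at hand for comparison.

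The promoter windows of Stbd1, Gbe1 and Pygb are shown because these genes had the largest positive differences and the largest negative difference among the 9. Each window runs from 250 bases before to 50 bases after the gene start in RefSeq (build GRCm38.p6, plus strand for all of them). Those of Stbd1 (chr5:92602801-92603100) and Gbe1 (chr16:70313699-70313998) are printed with the GC box GGGCGG in capitals. That of Pygb (chr2:150786546-150786845) is printed with ACGTG, a form of the core of the hypoxia response element, in capitals. It lies there on the minus strand and so reads CACGT. Other forms of this core were not searched.
Stbd1: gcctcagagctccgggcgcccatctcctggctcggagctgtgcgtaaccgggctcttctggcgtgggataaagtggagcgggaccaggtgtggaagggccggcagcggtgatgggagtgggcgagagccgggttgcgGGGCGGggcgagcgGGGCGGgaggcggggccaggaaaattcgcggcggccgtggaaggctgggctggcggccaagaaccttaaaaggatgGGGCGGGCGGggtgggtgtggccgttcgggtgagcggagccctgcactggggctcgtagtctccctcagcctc
Gbe1: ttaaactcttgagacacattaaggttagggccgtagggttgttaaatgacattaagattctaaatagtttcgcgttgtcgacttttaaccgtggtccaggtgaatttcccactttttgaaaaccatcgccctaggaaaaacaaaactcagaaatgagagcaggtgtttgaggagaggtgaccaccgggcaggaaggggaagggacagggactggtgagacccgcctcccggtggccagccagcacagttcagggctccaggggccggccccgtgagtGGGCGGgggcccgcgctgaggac
Pygb: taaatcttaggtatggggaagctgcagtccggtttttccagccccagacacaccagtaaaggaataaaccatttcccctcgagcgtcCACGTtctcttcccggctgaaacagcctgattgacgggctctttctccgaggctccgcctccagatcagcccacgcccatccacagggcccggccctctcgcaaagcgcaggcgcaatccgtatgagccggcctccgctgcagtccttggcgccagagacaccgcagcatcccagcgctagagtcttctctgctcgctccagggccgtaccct
The Stbd1 window held 4 GC boxes on the plus strand, starting 113, 99, 23 and 19 bases upstream of the gene start, the last 2 of which overlap. The Gbe1 window held 1 GC box, at base 28 of the transcribed part, and the Pygb window held 0 GC boxes and 1 ACGTG, 163 bases upstream.

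All 9 genes had a window in RefSeq, Ugp2 with 2, and both strands of these 10 windows were searched for 8 motifs. GGGCGG was found in 8 of the 10 windows and in 35.7% of all 32851 windows, and ACGTG in 6 of the 10 and in 19.6% of all. CACGTG, which contains ACGTG, was found in the windows of Gyg and Ppp1r3c and in 7.15% of all windows. CCAAT was in 3 of the 10 windows (37.4% of all) and the antioxidant response element TGACNNNGC in 1, that of Epm2a (12.4% of all). The ATF element TGATGNAA, the cAMP response element TGACGTCA and the sterol regulatory element TCACNCCAC were in 0 of the 10 windows (3.97%, 1.79% and 1.24% of all). The 10 windows had 54.3% to 76.0% G and C, against a median of 52.7% over all windows, so matches to motifs rich in these bases are not comparable at equal base composition. A match of letters is a description and shows no binding.

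**Figure D1:**
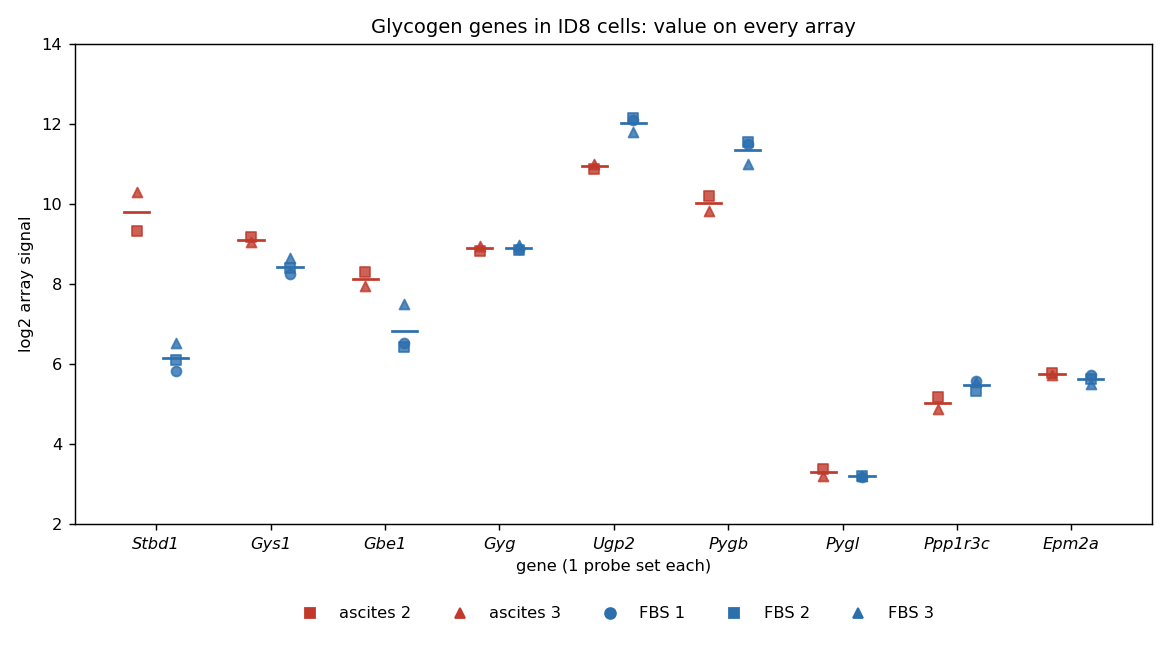
Log2 array signal (vertical axis) of the 9 glycogen genes (horizontal axis, 1 probe set each) on the 2 ascites arrays (red, left of each pair) and the 3 FBS arrays (blue, right); symbols mark the replicate number and bars the group mean. Stbd1 sits at 9.32 and 10.31 in ascites and at or below 6.54 in FBS, while Pygb sits at 10.21 and 9.84 in ascites and at or above 11.01 in FBS.

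Among the genes that build glycogen, synthase and branching enzyme were higher in ascites, the supplier of UDP-glucose was lower, and glycogenin was alike. Gys1 encodes the glycogen synthase of muscle and most other tissues. Its brighter probe set read 9.17 and 9.06 in ascites, against 8.26, 8.40 and 8.66 in FBS. The ascites arrays were above all FBS arrays, with a difference of 0.675 (SE 0.14) or 1.60-fold. The SDs were 0.08 in ascites and 0.20 in FBS. The dimmer Gys1 probe set read 6.31 and 6.26 in ascites and 6.13, 6.21 and 6.19 in FBS, a difference of 0.11 (SE 0.05) at a signal within the range of the other cell type markers. The probe sets thus had the same direction and different sizes.

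Gbe1, the glycogen branching enzyme, had signals of 8.31 and 7.96 in ascites and of 6.53, 6.44 and 7.51 in FBS. FBS replicate 3 lay 1.02 above the mean of FBS replicates 1 and 2, and it was still below both ascites arrays. The difference was 1.31 (SE 0.39) or 2.48-fold, and it was 1.65 against FBS replicates 1 and 2 and 0.625 against FBS replicate 3 alone. The FBS signals were again within the range of the markers of other cell types, and the ascites signals were above it.

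Ugp2, UDP-glucose pyrophosphorylase, makes the UDP-glucose that synthase and many glycosyltransferases use. Its brightest probe set read 10.88 and 11.01 in ascites, against 12.10, 12.16 and 11.81 in FBS, so each ascites array was below each FBS array. The difference was -1.08 (SE 0.13), a 2.11-fold lower signal. The other 4 probe sets differed by -1.01, -0.84, -0.74 and -0.54. In 4 of the 5 Ugp2 probe sets the ascites arrays lay below all FBS arrays. In the fifth they read 9.85 and 9.63, against 10.57, 10.60 and 9.68 in FBS, and FBS replicate 3 lay within the ascites range. By the suffixes of their names, 3 of these probe sets may match several transcripts of the gene and 1 may match related sequences. The 5 probe sets share a gene and are not independent measurements.

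Gyg encodes glycogenin, the primer of the polymer. It read 8.83 and 8.96 in ascites and 8.87, 8.85 and 8.98 in FBS, and the groups overlapped, with a difference of -0.01 (SE 0.07).

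On the breakdown side, the bright phosphorylase gene was lower in ascites and the liver isoform was dim in both groups. Pygb, the brain-type glycogen phosphorylase, which is also made outside the brain, read 10.21 and 9.84 in ascites, against 11.50, 11.55 and 11.01 in FBS. The groups did not overlap, and the difference was -1.33 (SE 0.22), a 2.51-fold lower signal. It was -0.985 against FBS replicate 3 alone. Pygl, the liver-type phosphorylase, read 3.39 and 3.22 in ascites and 3.19, 3.22 and 3.22 in FBS, near the lowest of the other cell type markers, so no change could be read from it.

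The regulators among the members were dim. Ppp1r3c encodes PTG, a subunit that brings protein phosphatase 1 to glycogen. Its brighter probe set read 5.19 and 4.88 in ascites and 5.57, 5.34 and 5.56 in FBS, a difference of -0.455 (SE 0.13) with no overlap, and its other probe set read 4.22 and 4.26 in ascites and 4.26 on all FBS arrays. Epm2a encodes laforin, a phosphatase with a starch-binding domain that removes phosphate from glycogen. It read 5.79 and 5.74 in ascites and 5.74, 5.64 and 5.50 in FBS, a difference of 0.14 (SE 0.09), and the groups met at 5.74. All these signals lay within the range of the markers of other cell types, so neither gene was shown to be expressed.

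**Figure D2:**
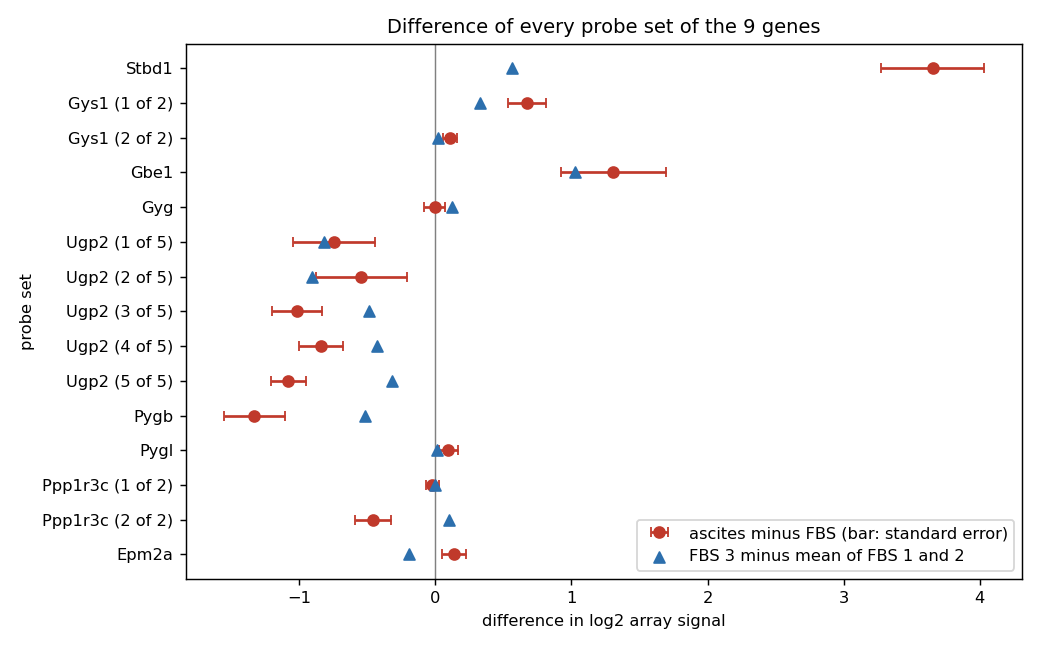
Difference in log2 array signal (horizontal axis) for each of the 15 probe sets of the 9 genes (vertical axis): red points are ascites minus FBS with SE bars, blue triangles are FBS replicate 3 minus the mean of FBS replicates 1 and 2. Stbd1 lies at 3.65, Gbe1 at 1.31, the 5 Ugp2 probe sets between -1.08 and -0.54 and Pygb at -1.33, and the blue triangles of these genes lie on the same side of 0 as the red points.

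Over the 9 genes, each by its brightest probe set, both ascites arrays were above all FBS arrays for 3 (Stbd1, Gys1 and Gbe1), where 18.6% of all genes were. They were below all FBS arrays for 3 others (Ugp2, Pygb and Ppp1r3c), where 19.4% of all genes were. At least 2-fold higher signals were found for Stbd1 and Gbe1, as for 2.19% of all genes, and at least 2-fold lower signals for Ugp2 and Pygb, as for 3.38% of all genes. Since these differences bore on the choice of genes, nothing is read from the counts. The median difference was 0.10 over the 9 genes and 0.00 over all genes.

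FBS replicate 3 stood apart from FBS replicates 1 and 2 for several of these genes. By the brightest probe sets of Stbd1, Gys1, Gbe1, Ugp2 and Pygb, it lay between FBS replicates 1 and 2 and the ascites arrays. The same held for 16.8% of all genes. This pattern needs both ascites arrays to lie beyond all FBS arrays, and such differences bore on the choice of genes. Nothing is therefore read from that share. The offset of FBS replicate 3 from FBS replicates 1 and 2 was 0.565 for Stbd1, 0.33 for Gys1 and 1.02 for Gbe1. It was -0.32 for the brightest Ugp2 probe set and -0.515 for Pygb. The ascites mean differed from that of FBS replicates 1 and 2 by 3.84 for Stbd1, 0.785 for Gys1, -1.19 for Ugp2 and -1.50 for Pygb. It differed from FBS replicate 3 by 3.27 for Stbd1, by 0.455 for Gys1, by -0.865 for Ugp2 and by -0.985 for Pygb. For these genes the direction against FBS replicate 3 was fixed by its place between the other arrays, so it adds no support. In the Ugp2 probe set whose groups overlapped, the ascites mean differed by -0.845 from FBS replicates 1 and 2 and by 0.06 from FBS replicate 3. What set FBS replicate 3 apart was not tested.

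The other genes of glycogen metabolism and its glucose supply were taken from 8 lists, of which 42 of 58 genes were measured. In the limma fit over all genes, 0 of the 42 rose and 2 fell at an adjusted p below 0.05. An unadjusted p below 0.05 was found for 9 of the 42 and for 3004 of all 12393 genes. The median difference of the 42 was -0.01, against 0.00 over all genes, and 2.69% of all genes rose and 2.59% fell by the same rule.

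Phosphorylase kinase, which activates phosphorylase, had 1 of its 5 measured subunits past the threshold. Phka2, the alpha subunit found in liver and other tissues, read 9.85 and 9.32 in ascites, against 10.77, 10.92 and 10.68 in FBS. It fell by 1.21 on the log2 scale (SE 0.19, limma adjusted p = 0.0459), both ascites arrays lying below the FBS arrays. Its other probe set read 5.54 and 5.48 in ascites and 5.28, 5.30 and 5.70 in FBS, at a dim signal where the groups overlapped. The remaining subunits did not pass. Of these, Phka1, the muscle-type alpha subunit, had both ascites arrays below all FBS arrays in each of its 3 probe sets (differences of -0.30, -0.51 and -0.36), and Phkb differed by 0.19.

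Of 5 measured synthase kinase and AMP-activated protein kinase genes, 1 passed. Prkag2, a nucleotide-binding gamma subunit of AMP-activated protein kinase in which mutations cause glycogen storage in the human heart, read 6.94 and 6.78 in ascites, against 7.80, 7.60 and 7.86 in FBS. It fell by 0.89 on the log2 scale (SE 0.11, limma adjusted p = 0.0327), and its other 2 probe sets differed by -0.67 and -0.75 with no overlap of the groups. All Prkag2 signals but those of 7.80 and 7.86 lay within the range of the other cell type markers. Limma adjusted p values over the alternative settings ran from 0.0149 to 0.267 for Phka2 and from 0.0199 to 0.278 for Prkag2. The calls of both were lost when FBS replicate 1 or FBS replicate 2 was left out, where 0 of all 12393 genes were called. With FBS replicate 1, FBS replicate 2, ascites replicate 2 or ascites replicate 3 left out, Phka2 differences stayed between -1.47 and -0.94. Those of Prkag2 stayed between -0.97 and -0.81. With the mean of all probe sets of a gene the differences were -0.56 for Phka2 and -0.77 for Prkag2. Neither gene passed there (limma adjusted p = 0.0681 and 0.0556). Both calls were also lost with the replicate number as a block and with FBS replicates 1 and 2 averaged as 1 sample. There too 0 of all genes were called, so these losses are not particular to Phka2 and Prkag2.

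In the other 6 lists 0 genes passed in limma, and 7 had an unadjusted p below 0.05, as did 3004 of all 12393 genes. Of 5 other enzymes of glycogen synthesis and breakdown, the smallest p was that of Gaa, the lysosomal acid alpha-glucosidase, which read 10.64 and 10.50 in ascites and 10.12, 10.12 and 9.95 in FBS (difference 0.51, SE 0.09, limma adjusted p = 0.0553). The muscle phosphorylase gene Pygm and the liver synthase gene Gys2 were at 5.12 or below on all arrays. Of 5 genes of protein phosphatase 1 and its other targeting subunits, the smallest p was that of Ppp1ca, a catalytic subunit (difference -0.47, SE 0.08, limma adjusted p = 0.0510). Among 2 measured partners of laforin or of glycogen quality control it was that of the laforin-interacting protein gene Epm2aip1 (-0.27, SE 0.08, limma adjusted p = 0.149).

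Of 9 genes of glucose entry and glucose 6-phosphate, the smallest p was that of Slc37a4, the glucose 6-phosphate transporter of the endoplasmic reticulum (difference 0.30, SE 0.10, limma adjusted p = 0.181). Hexokinase 2, Hk2, is named here after its values were seen. It read 11.36 and 11.65 in ascites and 9.82, 9.79 and 11.19 in FBS, so that the groups did not overlap while FBS replicate 3 lay near the ascites arrays (limma adjusted p = 0.242). The glucose transporter gene Slc2a1, also named after its values were seen, read 10.46 and 10.61 in ascites and 10.19, 10.18 and 11.37 in FBS, where FBS replicate 3 was the highest of the 5 arrays. Among 4 genes of UDP-glucose and galactose metabolism, Ugdh, which oxidises UDP-glucose, had the smallest p (difference 0.44, SE 0.14, limma adjusted p = 0.158).

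Among 7 genes of the ATG8 family and the lysosomal membrane, the smallest p was that of the lysosomal membrane protein gene Lamp1 (difference 0.43, SE 0.09, limma adjusted p = 0.0782). Gabarapl1 encodes the ATG8 protein that Stbd1 has been reported to bind, and it is named here for that link. Its brighter probe set read 11.20 and 11.32 in ascites and 12.53, 12.40 and 10.90 in FBS, with an overlap through FBS replicate 3 (difference -0.68, SE 0.57, limma adjusted p = 0.528). Without FBS replicate 3, 9 of the 42 genes passed, 3 higher (Gaa, Hk2 and Slc37a4) and 6 lower (Epm2aip1, Gabarapl1, Map1lc3a, Phka2, Ppp1ca and Prkag2). Over all genes 9.17% were then called higher and 10.9% lower, so the share among the 42 was near that of all genes. FBS replicates 1 and 2, which then set the FBS spread alone, were close to each other (SD 0.117 over all genes).

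**Figure D3:**
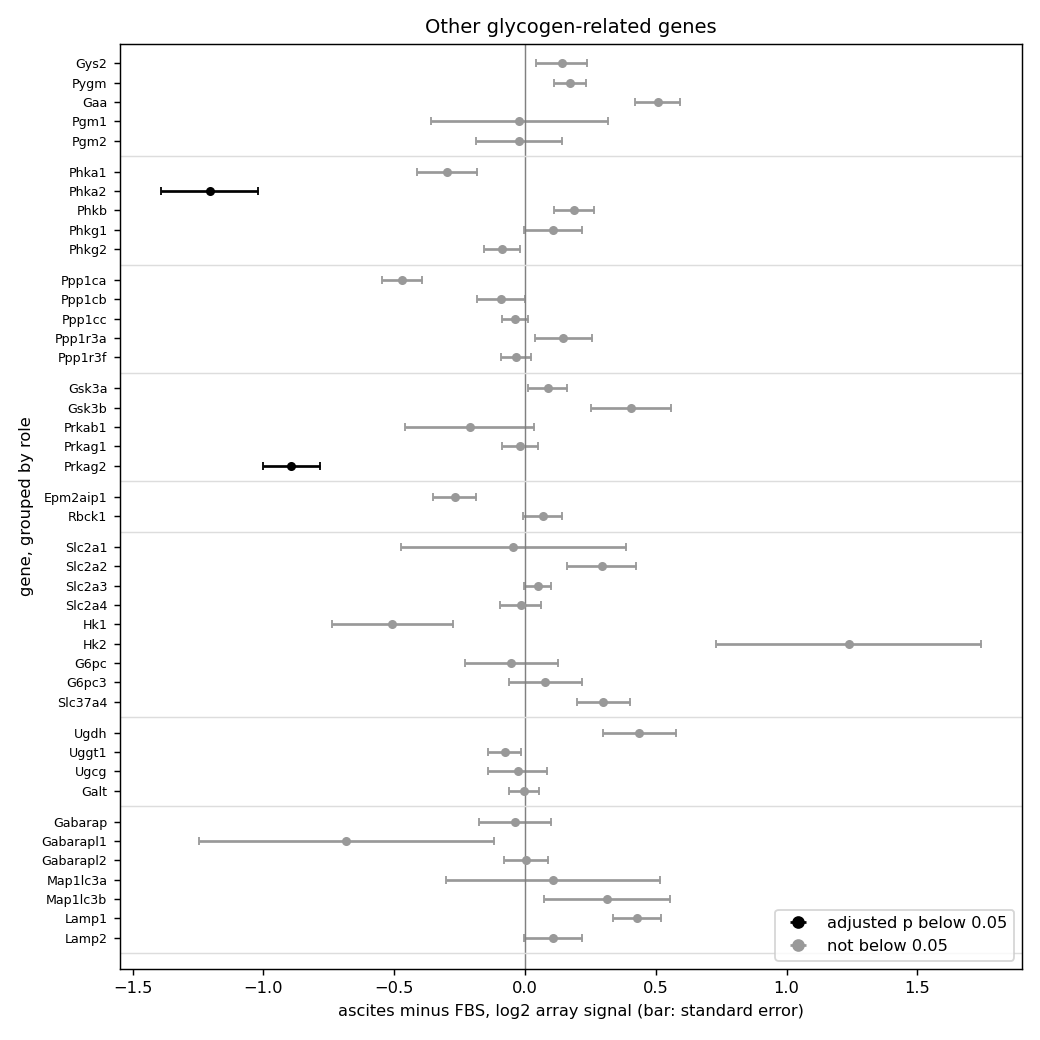
Ascites minus FBS difference in log2 array signal (horizontal axis) with SE bars for the 42 measured genes of the other lists (vertical axis, grouped by role from glycogen enzymes at the top to the ATG8 family and lysosomal membrane at the bottom). Phka2 at -1.21 and Prkag2 at -0.89, in black, passed an adjusted p of 0.05, and the other 40, in grey, did not.

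The 5 genes whose pattern over the 5 arrays was nearest to that of Stbd1 were B4galnt2, Reep6, Car6, Csn3 and Camk1d. Nearness was the root-mean-square difference between the genes' log2 signals after each gene was centred on its own mean, which is a description of these 5 arrays. It was 0.18 for B4galnt2, a glycosyltransferase gene, which read 7.78 and 8.84 in ascites and 4.75, 4.94 and 5.10 in FBS. Like Stbd1, B4galnt2 was higher in ascites replicate 3 than in ascites replicate 2, by 1.06. The distance was 0.33 for Reep6, a shaper of the endoplasmic reticulum, which read 10.11 and 10.85 in ascites and 7.21, 7.51 and 7.51 in FBS. For Car6, a secreted carbonic anhydrase, it was 0.41, with 11.59 and 13.14 in ascites and 7.79, 7.83 and 8.32 in FBS. These genes had the higher ascites signal in replicate 3, as Stbd1 did.

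Csn3, a casein gene, and Camk1d, a calcium-dependent kinase gene, lay at 0.41 and 0.44, and their ascites arrays differed by only -0.10 and 0.10. A second Camk1d probe set differed by 2.88 between the groups, whereas second probe sets of B4galnt2 and Csn3 differed by 0.26 and -0.02, at signals of 4.96 or below. The likeness of B4galnt2 and Csn3 to Stbd1 was thus seen in 1 of their 2 probe sets. Signals as dim as those of the second probe sets were not shown to lie above background, so they cannot decide it. As for Stbd1, the FBS signals of B4galnt2, Reep6, Csn3 and Camk1d lay within the range of the markers of other cell types. The sizes of their differences are therefore uncertain.

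**Figure D4:**
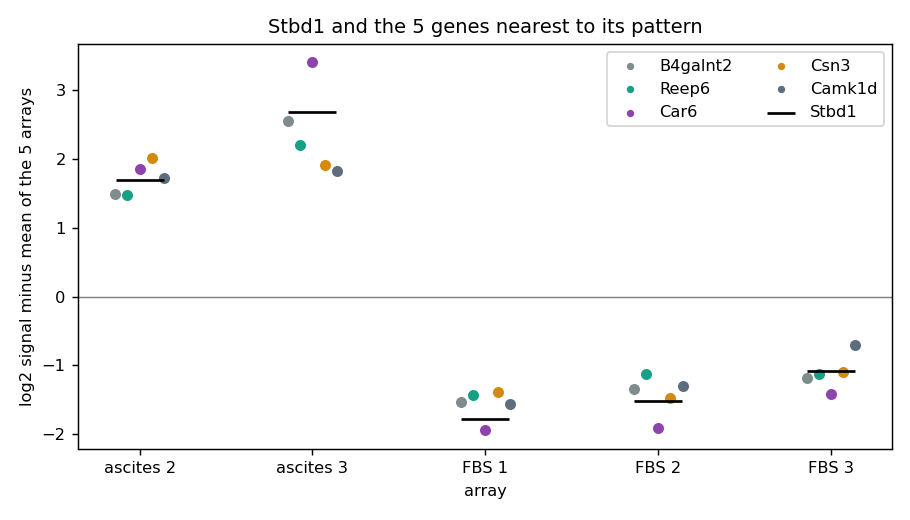
Log2 signal of Stbd1 (black bars) and of the 5 genes nearest to its pattern (points), each minus its own mean over the 5 arrays (vertical axis), on each array (horizontal axis, ascites arrays at the left). Stbd1, B4galnt2, Reep6 and Car6 were higher in ascites replicate 3 than in ascites replicate 2, and Csn3 and Camk1d were near level.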

How the data were processed

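Total RNA was labelled with biotin and hybridised to Affymetrix mouse arrays. Per the submitters' processing notes, the authors used Affymetrix Expression Console; for its version and summarisation method, the sources used here give nothing. The deposited values appear to be log2 signals from their range, 1 per probe set on every array. Array medians were 7.40 to 7.47, so no further normalization was applied. The number of arrays limits the precision.

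Of 22690 probe sets, 64 controls were left out. The platform annotation gave 1 gene for 20380, several for 691 and none listed for 1555. Through their Entrez identifiers, 20351 were found in a RefSeq table (GRCm38.p6). The brightest probe set by mean over all arrays stood for each of 12393 genes. The comparison used limma (version 3.58.1, under R 4.3.3) with its lmFit and eBayes functions, a two-sided test without covariates, and 3 residual and 1.33 prior degrees of freedom. The p values were adjusted by the Benjamini-Hochberg method over all genes, with a threshold of 0.05. SEs of member probe sets came from the same fit over all 22626 non-control probe sets. The calculation was tested on simulated data. Their noise was independent, with the same SD on every array of a gene, so the uneven spread of the real arrays was not tested.

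Members and lists were chosen with earlier results of these data known. Named were all members, genes of the other lists past the threshold (otherwise the smallest p), and the 5 genes nearest to Stbd1; exceptions are stated. Alternatives covered the probe set per gene, normalization, dim genes, the replicate block, array weights, the prior and leaving out each array. Labels give no batch.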

Additional observations from a re-analysis of the deposited data

How the results depend on the processing

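Over the normalizations, the replicate block, array weights, averaging FBS replicates 1 and 2, and leaving out each array, Stbd1 ran from 3.16 to 4.15, Gbe1 from 1.11 to 1.65, the brightest Gys1 probe set from 0.585 to 0.785, the brightest Ugp2 probe set from -1.19 to -1.01 and Pygb from -1.51 to -1.14. Of the 15 probe sets, Gyg (-0.07 to 0.06) did not keep its sign and the dimmer Ppp1r3c probe set (-0.04 to 0.00) reached 0. Where the groups did not overlap, leaving out, averaging, weighting or blocking arrays could not change the sign. A kept sign therefore adds no support for those probe sets. The number of genes called in the limma fit rested on the arrays used: 654 of 12393 in the fit reported, 0 to 2494 when 1 array was left out (2494 without FBS replicate 3, and 0 without any other array, with 2016 to 2748 at an unadjusted p below 0.05), 0 with FBS replicates 1 and 2 averaged (2128 unadjusted) and 2612 with array weights. With every probe set tested, 982 probe sets were called. Of the 42 other glycogen-related genes, 2 were called in the fit reported, 4 with quantile normalization, with median centring or with the lowest 25% of genes left out (Gaa and Ppp1ca being added, beside 888, 924 and 884 genes called over all genes, and with 36 of the 42 tested in the last of these), 8 with array weights, 1 with the trend prior (Prkag2), 0 with FBS replicates 1 and 2 averaged (5 unadjusted) and 0 to 9 when 1 array was left out. With the mean of all probe sets of a gene the 2 called were Gaa and Ppp1ca in place of Phka2 and Prkag2.

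With the replicate number as a block, 0 genes were called (1891 at an unadjusted p below 0.05), 0 of the 42 among them (4 unadjusted), and Stbd1 differed by 3.49. Only numbers 2 and 3 are shared, and same-numbered arrays correlated at 0.03 and 0.04 in their deviations from the group means. With 2 ascites arrays the ascites deviations are mirror images, so these values are not separate checks. The numbers were not shown to pair the arrays, and this check cannot decide whether they do. Signals within the range of the other cell type markers limit Stbd1, Gbe1, Pygl, Ppp1r3c and Epm2a.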
